A study of Mus musculus with 8 samples.

Results

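The genes described here encode the nuclear subunits of the mitochondrial oxidative phosphorylation system. The rule uses gene symbols and no measured value, although it was set with earlier results of these data known: Nduf genes of the a, b, c, s and v series for complex I, Sdha to Sdhd for complex II, Uqcr genes for complex III, Cox genes of the numbers 4 to 8 followed by a, b or c for complex IV, and Atp5 genes for complex V. Ndufa4, Ndufa4l2 and symbols marked as pseudogenes were left out. The rule found 80 of the 24346 gene symbols in the tables, namely 35 for complex I, 4 for complex II, 8 for complex III, 16 for complex IV and 17 for complex V. All 80 are annotated as protein-coding. By symbol the rule also takes in Atp5s and Atp5sl, whose products are known as assembly-related proteins and not as subunits of ATP synthase. The subunits encoded in mitochondrial DNA were not analysed here.

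RNA was sequenced from mouse bone marrow cells of WT genotype. Hematopoietic stem cells (HSCs) were labelled LT-HSC and gated as Lin- Sca-1+ c-Kit+ CD48- CD150+, whereas LSK cells were gated as Lin- Sca-1+ c-Kit+ with no further marker, a gate that holds HSCs together with multipotent progenitors. Each cell type was cultured for 1 day alone (single culture, Ctrl) or in co-culture with irradiated, leukocyte-depleted red blood cells (RBCs). All 4 groups had the same serum-free medium, to which the paper's culture method adds the cytokines thrombopoietin and stem cell factor. CD45-positive cells were sorted after lysis of the RBCs. The design asks what contact with RBCs changes in HSCs and in LSK cells. Each of the 4 groups held 2 libraries, and no label ties the libraries to separate animals or cultures. The p-values therefore measure the spread between libraries, which may be technical.

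Oxidative phosphorylation moves electrons from NADH and succinate through complexes I to IV to oxygen, and the proton gradient built on the way drives ATP synthesis by complex V. Each complex has a small set of catalytic or core subunits and, in complexes I, III, IV and V, many short accessory or structural ones. HSCs are known for low mitochondrial activity and a reliance on glycolysis, and mitochondrial respiration is known to rise as they enter differentiation. Complex II, succinate dehydrogenase, is the only complex of the 5 that is also an enzyme of the TCA cycle and that has no subunit encoded in mitochondrial DNA.

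The transcripts of these genes were abundant. Expression is given as FPKM, in which fragment counts are scaled by library size and by transcript length. The members made up 4.30% of all FPKM in HSC libraries and 3.70% in LSK libraries. Averaged over the 8 libraries, the highest was Atp5b, the catalytic beta subunit of ATP synthase, at 1128 FPKM. Other leading members were Cox6b1 (910 FPKM), a subunit at the interface of the complex IV dimer, Uqcr11 (909 FPKM), a small subunit of complex III, and Ndufa3 (646 FPKM), an accessory subunit of complex I. Sdhd, a membrane anchor of complex II, led its complex at 281 FPKM. At the other end were Sdhc (131 FPKM), the other membrane anchor of complex II, Uqcrc2 (107 FPKM), a core protein of complex III, Ndufs5 (37.6 FPKM) and Atp5sl (27.4 FPKM). Cox7b2, Cox8b and Cox8c, known as testis or muscle isoforms of complex IV subunits, were close to 0 in every library, and they alone among the 80 members did not reach the minimum of 1 FPKM in 2 libraries, so 77 members were tested.

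Summed FPKM was lower in LSK cells than in HSCs for the genes of complexes I, III, IV and V, with or without RBCs. These sums describe transcripts and not the amount of the complexes. The complex I sum was 9230 and 10520 FPKM in HSC controls, 9824 and 9917 in HSCs with RBCs, 8613 and 8365 in LSK controls and 8378 and 8016 in LSK cells with RBCs. LSK libraries thus averaged 84.5% of HSC libraries, and the highest LSK library lay below the lowest HSC library. The complex III sum was 3862 and 4444 FPKM in HSC controls, 4099 and 4133 in HSCs with RBCs, 3413 and 3397 in LSK controls and 3307 and 3115 in LSK cells with RBCs, that is 80.0% in LSK cells. The complex V sum was 9375 and 10480 FPKM, 9618 and 9797 FPKM, 8464 and 8152 FPKM and 7855 and 7550 FPKM in the same order, or 81.5% in LSK cells. The complex IV sum ran from 5768 to 6697 FPKM in HSC libraries and from 4901 to 5428 FPKM in LSK libraries, or 84.3%. In all 4 of these complexes the cell types did not overlap.

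Complex II differed less between the cell types. Its sum was 895 and 932 FPKM in HSC controls, 883 and 872 in HSCs with RBCs, 890 and 850 in LSK controls and 822 and 778 in LSK cells with RBCs. LSK libraries averaged 93.3% of HSC libraries, and the ranges overlapped when the cultures were pooled. Within each culture, both LSK libraries lay below both HSC libraries. In bulk libraries such as these, fewer cells of a type and less RNA per cell cannot be told apart.

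**Figure D1:**
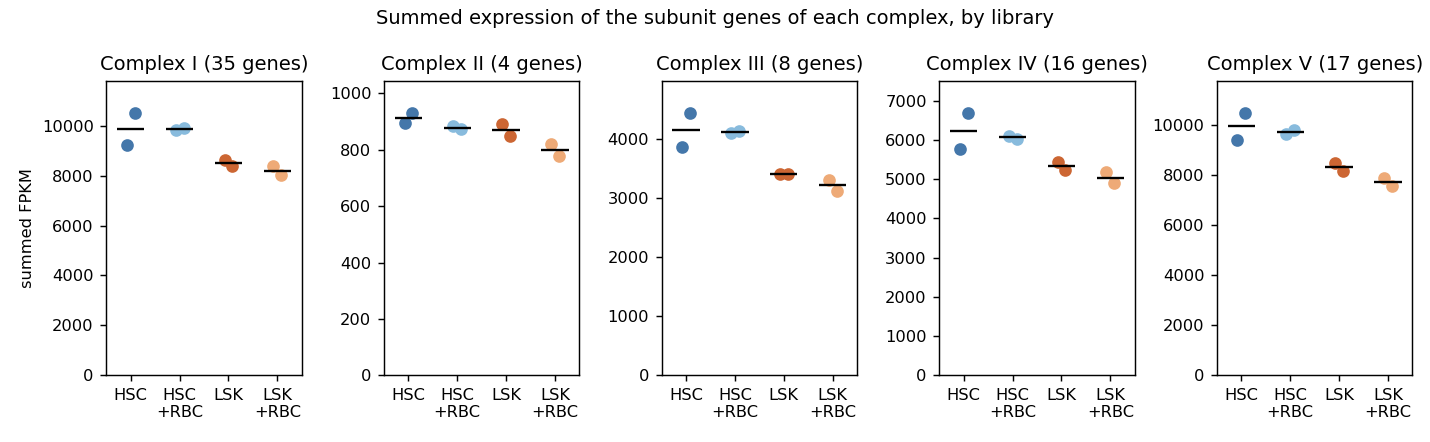
Summed FPKM of the genes of each complex (vertical axes, from 0) in each of the 8 libraries, grouped by cell type and culture, where points are libraries and black lines are group means of 2. The 4 LSK libraries lie below the 4 HSC libraries in complexes I, III, IV and V. In complex II the cell types overlap across the cultures but not within either culture.

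The libraries of a group did not agree equally well. In HSC controls, replicate 2 was above replicate 1 for 71 of the 77 tested members, with a median of 114% of replicate 1, while the median over all tested genes was 100%. The corresponding counts were 41 of 77 in HSCs with RBCs, 21 of 77 in LSK controls and 15 of 77 in LSK cells with RBCs. Total FPKM per library ran from 680942 to 752107, with the highest in HSC control replicate 2, and between 14829 and 16551 genes were above 0. The number of reads per library is unknown, but the steps between low FPKM values placed the relative depth of the libraries between 0.886 and 1.13 of LSK control replicate 1.

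Cd48 and Slamf1, the sort markers by which the gates differ, went in the directions of the gates. Cd48, which the HSC gate excludes, was 15.97 to 42.7 FPKM in HSC libraries and 124 to 184 FPKM in LSK libraries, and Slamf1, which encodes CD150, was 5.50 to 10.7 FPKM and 3.09 to 4.63 FPKM. Ly6a encodes Sca-1, which is positive in both gates, and was lower in LSK cells. It was 388 to 719 FPKM in HSCs and 170 to 381 FPKM in LSK cells (log2 difference -1.12, adjusted p = 0.00071, limma). By the test described below, 5 of the 7 sort markers were higher in LSK cells and 2 lower, where 16.1% and 16.8% of all genes were. With RBCs in HSCs, 1 sort marker was higher and 2 lower, where 1.57% and 0.958% of all genes were. Transcripts of mature neutrophils also differed between the libraries. The summed level of 8 neutrophil markers, led by S100a8 and S100a9, was 4.61 to 7.53 FPKM in HSC controls, 42.0 to 248 in HSCs with RBCs, 121 to 210 in LSK controls and 350 to 556 in LSK cells with RBCs, and 6 of the 8 were higher in LSK cells by the test described below. The sum of 6 monocyte or macrophage markers was 5.58 to 9.45, 14.9 to 19.1, 29.1 to 35.1 and 93.3 to 106 FPKM in the same order. The sum of 8 RBC markers was 282 to 338 FPKM in HSC controls, 299.5 to 308 in HSCs with RBCs, 111 to 177 in LSK controls and 119 to 184 in LSK cells with RBCs. Within this sum 3 markers were higher with RBCs in HSCs and 1 in LSK cells. Hba-a1, an alpha globin gene, was 0.0826 and 1.40 FPKM in HSC controls, 116 and 88.7 in HSCs with RBCs, 0.864 and 1.53 in LSK controls and 32.9 and 43.1 in LSK cells with RBCs, while Hbb-b2, a beta globin gene, was 278.5 and 335 FPKM in HSC controls and 120.3 and 159 in HSCs with RBCs (not called). The globin genes are near-identical copies, so the split of reads among them is uncertain. The sum of 5 platelet markers was 179.8 to 219.6 FPKM in HSCs and 74.9 to 195 FPKM in LSK cells. The 3 B cell markers summed to at most 1.99 FPKM and the 3 T cell markers to at most 0.521 FPKM. The part of such transcripts in the differences below was not tested.

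Gene by gene, most subunits were lower in LSK cells than in HSCs. A limma fit to log2(FPKM + 1) over all 8 libraries, with a call at a Benjamini-Hochberg adjusted p under 0.05 over the 12003 genes tested, gave 51 of 77 members called when the difference was averaged over both cultures. Of these, 47 were lower and 4 higher in LSK cells. Among all genes tested, 32.9% were called, 16.8% lower and 16.1% higher. The median log2 difference over the 77 members was -0.21, beside 0.0065 over all genes. In single culture 23 members were lower and 1 higher (24, where 14.2% of all genes were called, 7.29% lower and 6.93% higher), and in co-culture 36 were lower and 2 higher (38, where 24.4% of all genes were called, 12.5% lower and 11.9% higher), with 22 lower in both. The changes were small, and Cox6a2 alone reached 2-fold among the 77 members in any comparison. The 4 LSK libraries lay below the 4 HSC libraries for 40 members, against 13.7% of all genes tested, and above them for 3 members, against 13.6%. After quantile normalization the median over members was -0.11 and 37 were called. Without LSK replicate 2 of the co-culture 33 were called, and without HSC control replicate 2, which stood apart above, 46.

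**Figure D2:**
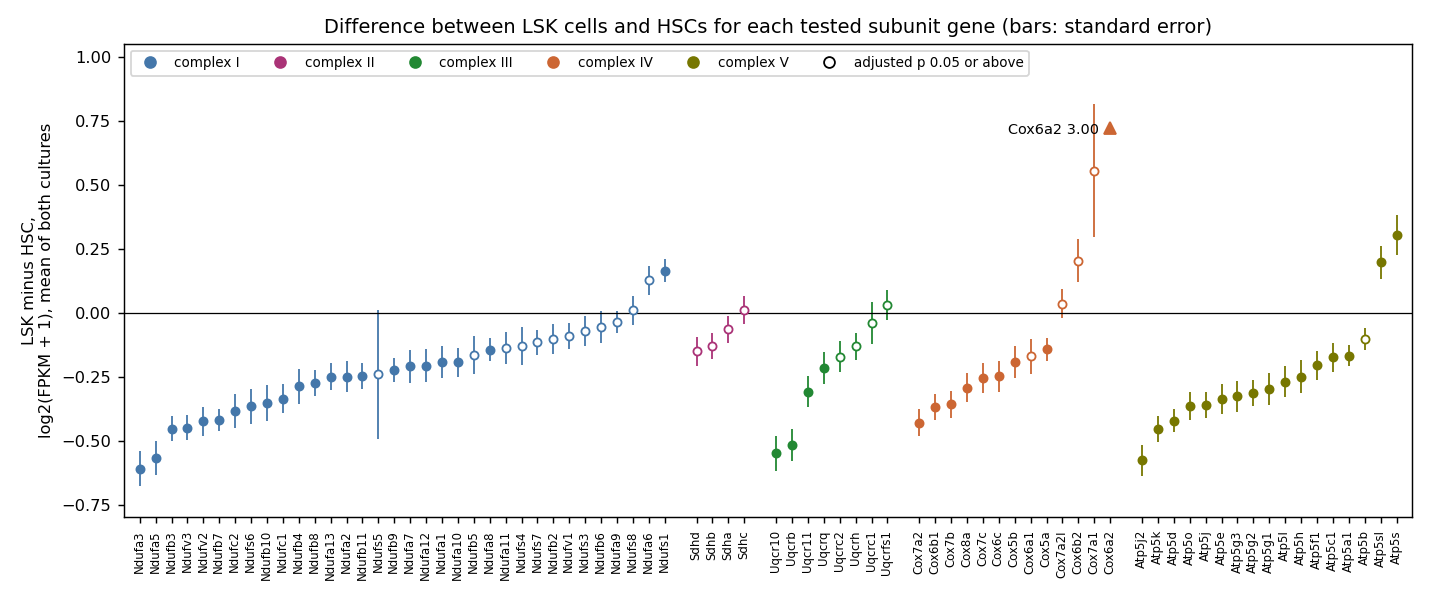
LSK minus HSC difference on the log2(FPKM + 1) scale, averaged over both cultures (vertical axis), for 76 of the 77 tested members in order within each complex, with the standard error from limma. Filled points passed an adjusted p of 0.05, and the triangle marks Cox6a2, which lies above the axis at 2.997. Most points of complexes I, III, IV and V lie below 0, and none of complex II is filled.

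In complex I, 21 of 35 members were lower in LSK cells and 1 was higher, with a median log2 difference of -0.21. Complex I, NADH dehydrogenase, is built of core subunits that carry the flavin and the iron-sulfur clusters and of accessory subunits around them. The 28 accessory subunits had a median of -0.24 with 20 lower, and the 7 nuclear core subunits a median of -0.07 with 1 lower and 1 higher. Among the accessory subunits, Ndufa3 (GRCm38 chr7:3617373-3620327, plus strand) was 692 and 873 FPKM in HSC controls, 783 and 775 in HSCs with RBCs, 510 and 519 in LSK controls and 490 and 521 in LSK cells with RBCs. It was thus lower in every LSK library, at 65.3% of the HSC level (log2 difference -0.61 ± 0.069 (SE), adjusted p = 0.00023, limma). Ndufa3 overlaps Tfpt on the opposite strand, which was between 16.7 and 25.5 FPKM in every library.

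Ndufa5, an accessory subunit of the peripheral arm (chr6:24518666-24528013, minus strand), was 221 and 273 FPKM in HSC controls, 262 and 260 in HSCs with RBCs, 187 and 178 in LSK controls and 155 and 163 in LSK cells with RBCs. Its log2 difference was -0.57 ± 0.066 (SE, adjusted p = 0.00026, limma) on average, -0.43 in single culture and -0.71 in co-culture. Ndufb7, an accessory subunit of the membrane arm (chr8:83566671-83571626, plus strand), was 374 and 375 FPKM in HSC controls, 357 and 353 in HSCs with RBCs, 260 and 282 in LSK controls and 273 and 276 in LSK cells with RBCs. In single culture it was among the members that fell most, by 0.47 on the log2 scale (adjusted p = 0.0014, limma). The HSC and LSK libraries overlapped for neither gene.

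The core subunits of complex I stayed closer together. Ndufv1, which binds the flavin and NADH, was 134 to 145 FPKM in HSC libraries and 122 to 139 FPKM in LSK libraries, with overlapping ranges and a log2 difference of -0.09 (95% interval -0.20 to 0.02). Ndufs1, the largest core subunit (chr1:63143596-63176833, minus strand), overlaps Eef1b2, Gm24557 and Ino80dos on the opposite strand. The reads carry no strand, and the part of these genes in its value was not tested. Ndufs1 was higher in LSK cells. It was 65.4 and 66.8 FPKM in HSC controls, 70.4 and 69.4 in HSCs with RBCs, 77.7 and 76.2 in LSK controls and 76.3 and 74.8 in LSK cells with RBCs, a difference of 0.16 ± 0.045 (SE, adjusted p = 0.021, limma) that lost its call in 8 of 19 alternatives. Ndufv2, a core subunit with an iron-sulfur cluster, was the core member that fell, from 178 ± 8.24 FPKM in HSC libraries to 132 ± 9.19 FPKM in LSK libraries (SD, n = 4 each, with both cultures pooled). Ndufs5 could not be compared at this spread, with 22.6 and 64.1 FPKM in the HSC libraries with RBCs. RefSeq lists a pseudogene of this gene by symbol, as it does for 10 of the 80 members, Atp5k among them.

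None of the 4 complex II genes passed the test. Sdha, the flavoprotein that oxidizes succinate (chr13:74322254-74350280, minus strand), was 212 and 184 FPKM in HSC controls, 219 and 217 in HSCs with RBCs, 206 and 203 in LSK controls and 195 and 189 in LSK cells with RBCs, so that the cell types overlapped (log2 difference -0.07, 95% interval -0.18 to 0.05). Sdhb, the iron-sulfur subunit, was 240 to 287 FPKM in HSCs and 216 to 256 FPKM in LSK cells (-0.13, 95% interval -0.24 to -0.02, adjusted p = 0.078, limma). The difference of Sdhd was -0.15 (adjusted p = 0.067) and that of Sdhc 0.01 (adjusted p = 0.91). The median of the 4 genes was -0.10, and 2 of them were under an unadjusted p of 0.05.

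In complex III, ubiquinol-cytochrome c reductase, 4 of 8 members were lower in LSK cells and the median was -0.19. All 4 belonged to the 5 small subunits, whose median was -0.31. Uqcr10 (chr11:4701973-4704342, minus strand) was 675 and 800 FPKM in HSC controls, 774 and 729 in HSCs with RBCs, 538 and 525 in LSK controls and 525 and 446 in LSK cells with RBCs, a difference of -0.55 ± 0.070 (SE, adjusted p = 0.00043, limma). Uqcrb, which takes part in ubiquinone binding (chr13:66900617-66905378, minus strand), was 813 and 926 FPKM, 861 and 920 FPKM, 677 and 592 FPKM and 611 and 579 FPKM in the same order, or 69.8% of the HSC level. Neither gene overlapped between the cell types. The core proteins and the Rieske protein did not pass the test. Uqcrc1 was 229 to 263 FPKM in HSCs and 205 to 306 FPKM in LSK cells, and Uqcrfs1, the Rieske iron-sulfur protein, was 140 to 161 FPKM and 149 to 163 FPKM (log2 difference 0.03, 95% interval -0.11 to 0.17). Cyc1, the cytochrome c1 gene that the symbol rule does not take in, was lower in LSK cells by 0.27 on the log2 scale.

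In complex IV, cytochrome c oxidase, 8 of the 13 tested members were lower in LSK cells, 1 was higher, and the median was -0.19. The nuclear genes of this complex encode no catalytic centre, which is made of subunits from mitochondrial DNA. Cox7a2, the widely expressed form of subunit VIIa (chr9:79755361-79759878, minus strand), fell from 289 ± 19.96 FPKM to 214 ± 11.2 FPKM (SD, n = 4 each, both cultures pooled) and Cox6b1 from 1026 ± 67.9 to 794 ± 58.8 FPKM. Cox5a, which lies on the matrix side, was 534 to 589 FPKM in HSCs and 480 to 546 FPKM in LSK cells and fell by 0.14 on the log2 scale (adjusted p = 0.041, limma), though the ranges overlapped.

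Complex IV also held the member with the largest difference between the cell types. Cox6a2, the form of subunit VIa known from heart and skeletal muscle (chr7:128205435-128206387, minus strand), was 0.456 and 0 FPKM in HSC controls, 0.342 and 0.604 in HSCs with RBCs, 6.84 and 15.96 in LSK controls and 9.65 and 8.004 in LSK cells with RBCs. All 4 LSK libraries lay above all 4 HSC libraries (log2 difference 2.997 ± 0.24 (SE), adjusted p = 2.8e-05, limma), and the call held in all 19 alternatives tried. The FPKM steps correspond to at least 3, 0, 2 and 4 reads in the HSC libraries and to at least 40, 104, 50 and 44 in the LSK libraries. Cox6a2 overlaps Itgad on the opposite strand, and Itgad was at most 0.183 FPKM in any library. Even so, Cox6a2 made up 1.54% of the Cox6a pair in LSK cells and 0.0495% in HSCs, and Cox6a1, the widely expressed form, was 623 to 788 FPKM in HSCs and 619 to 664 FPKM in LSK cells (log2 difference -0.17, adjusted p = 0.088, limma).

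The other paralogous sets showed how far the alternative forms were used at all. Cox7a1, the muscle form of subunit VIIa, was 1.78 and 3.79 FPKM in HSC controls, 3.999 and 7.07 in HSCs with RBCs, 8.499 and 3.59 in LSK controls and 6.77 and 6.39 in LSK cells with RBCs, with overlapping ranges. It was 1.39% of the sum with Cox7a2 in HSCs and 2.85% in LSK cells. Cox7a2l, which is known as a factor of respiratory supercomplexes, was 156 to 177 FPKM and 152 to 187 FPKM. Cox7b and Cox8a carried at least 99.76% of their sets in every library, and Cox7b2, Cox8b and Cox8c were each listed above 0 in a single library, at a value that corresponds to at least 1 read. The 3 genes for the c subunit of the ATP synthase rotor, Atp5g1, Atp5g2 and Atp5g3, encode the same mature peptide and kept nearly the same proportions, 30.4%, 33.8% and 35.8% of their sum in HSCs and 30.8%, 33.8% and 35.5% in LSK cells.

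**Figure D3:**
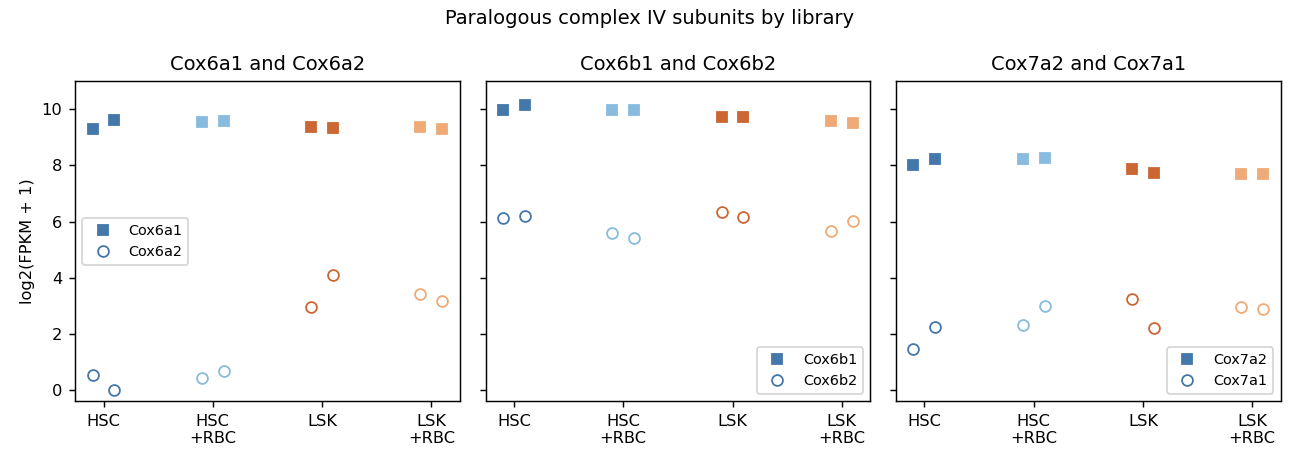
Paired forms of complex IV subunits, log2(FPKM + 1) in each of the 8 libraries (points, 2 per group), with the widely expressed form as filled squares and the alternative form as open circles. Cox6a2 is near 0 in the 4 HSC libraries and between 6.84 and 15.96 FPKM in the 4 LSK libraries, while Cox6b2 and Cox7a1 overlap between the cell types.

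In complex V, ATP synthase, 14 of 17 members were lower in LSK cells, 2 were higher, and the median was -0.30. All 10 subunits of the membrane part and stalk were lower, with a median of -0.32, and 4 of the 5 subunits of the F1 head, with a median of -0.17. Atp5j2, the f subunit of the membrane part (chr5:145183698-145192062, minus strand), was 583 and 680 FPKM in HSC controls, 606 and 620 in HSCs with RBCs, 436 and 430 in LSK controls and 425 and 377 in LSK cells with RBCs, a difference of -0.58 ± 0.061 (SE, adjusted p = 0.00015, limma). Atp5k, the e subunit (chr5:108433244-108434448, minus strand), was 726 and 795 FPKM, 648 and 718 FPKM, 532 and 543 FPKM and 510 and 517 FPKM in the same order, and fell by 0.50 in single culture (adjusted p = 0.0023, limma). The cell types were apart for both genes.

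In the F1 part, Atp5d (-0.42, adjusted p = 0.00018, limma) and Atp5e (-0.34, adjusted p = 0.0026, limma), the delta and epsilon subunits of the central stalk, were lower in LSK cells. Atp5b, the beta subunit, was 1137 and 1183 FPKM in HSC controls, 1178 and 1174 in HSCs with RBCs, 1144 and 1130 in LSK controls and 1058 and 1021 in LSK cells with RBCs, with a difference of -0.10 (95% interval -0.20 to -0.009, adjusted p = 0.087, limma). Atp5a1, the alpha subunit, was 488 to 527 FPKM in HSCs and 431 to 484 FPKM in LSK cells and fell by 0.17 (adjusted p = 0.013, limma). Both members that rose were the assembly-related Atp5s, at 20.3 to 29.9 FPKM in HSCs and 29.5 to 32.3 FPKM in LSK cells (0.30, adjusted p = 0.017), and Atp5sl, at 22.6 to 28.6 FPKM and 27.9 to 30.5 FPKM (0.20, adjusted p = 0.045). Their ranges overlapped, and their calls were lost in 4 and 12 of 19 alternatives.

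Expression level and transcript length moved with the difference between the cell types. Among genes with a mean above 200 FPKM, 41 of 53 members were lower in LSK cells (77.4%, median log2 difference -0.26), and so were 189 of 525 other genes (36.0%, median -0.10). Of the 24 members at 200 FPKM or less, 6 were lower. All 6 were among the 15 members over 100 FPKM (median -0.17), where 34.2% of other genes were lower (median -0.08). In the classes up to 100 FPKM, 0 members were lower, beside 12.1% to 22.6% of other genes. The annotated transcripts of the members that fell had a median length of 704 nt, those of the members that were not called 1091 nt and those of the 4 that rose 1706 nt. Across the 77 members, Spearman's rho between length and difference was 0.36, and across 11919 tested genes with a length it was 0.076. Genes are not independent replicates, and all points share the same 8 libraries. In the length class of 501 to 750 nt, 21 of 28 members were lower and 28.5% of all genes were. With the trend of all genes on length removed, 44 members were called in place of 51, 38 of them lower, and the median over members was -0.17. The part of level and length in the result was not tested further.

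**Figure D4:**
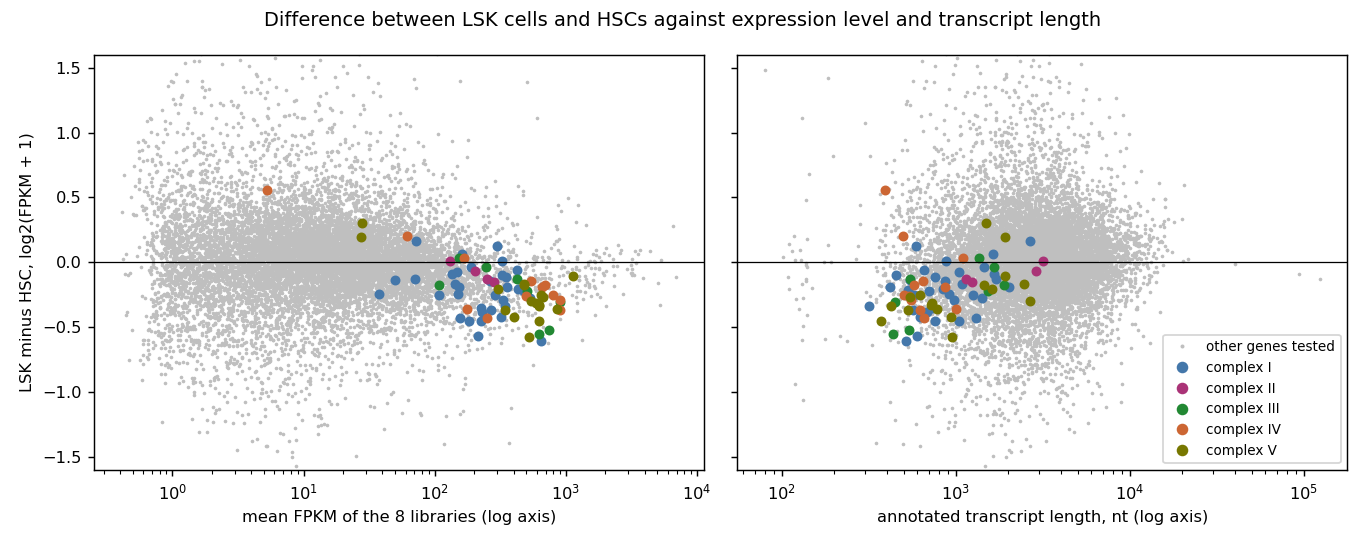
LSK minus HSC difference on the log2(FPKM + 1) scale (vertical axis) against mean FPKM of the 8 libraries (left) and annotated transcript length in nucleotides (right), both on log axes, for all tested genes (grey) and the members by complex (colours). 124 genes beyond 1.6 in either direction are not shown, Cox6a2 among them. Members with a mean above 200 FPKM lie mostly below 0, with a median of -0.26, where other genes at that level have a median of -0.10.

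Promoters of some members hold sequence motifs, which the symbol rule did not use. NRF1 and the ETS factor GABP (also called NRF2) are transcription factors known to regulate nuclear genes of the respiratory chain, and YY1 is known at several complex IV genes. RefSeq promoters (build GRCm38.p6, 250 bases before to 50 after the start, 300 in all) matched 68 of the 80 members. The NRF1 motif, searched as GCGC and TGCGC with any base between them, was found on either strand in the promoters of 17 of these 68 members, against 5.19% of 27025 genes. The ETS motif, searched as CCGGAAG, was found in 16 (23.5%), against 9.93% of genes. The YY1 motif, searched as AA, any base, ATGG and CGGC in a row, was found in 5 (7.35%), against 1.17% of genes. These were Ndufa9, Ndufs4, Ndufs6, Ndufs7 and Atp5sl, with no gene of complex IV. They were 1 of the 41 matched members that were lower in LSK cells and 4 of the 27 others. No match of 1 motif overlapped a match of another in the 74 promoters of these members. At least 1 of these motifs was present in 33 members (48.5%), against 14.8% of genes. It was present in 17 of the 41 matched members that were lower in LSK cells and in 16 of the 27 others. These matches describe letters and do not show binding.

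Promoters of 3 members that fell in LSK cells, Ndufa5, Atp5k and Ndufb7, and of Sdha, which was not called, are shown 5′ to 3′ on the strand of the gene as examples of the NRF1 motif (Ndufa5, Atp5k and Sdha) and of the ETS motif (Atp5k and Ndufb7). Capitals mark the NRF1 motif or, in the form CCGGAAG or its reverse complement CTTCCGG, the ETS motif.
Ndufa5 (chr6:24527641-24527940, minus strand, the upstream of 2 RefSeq starts, NRF1 motif at -26): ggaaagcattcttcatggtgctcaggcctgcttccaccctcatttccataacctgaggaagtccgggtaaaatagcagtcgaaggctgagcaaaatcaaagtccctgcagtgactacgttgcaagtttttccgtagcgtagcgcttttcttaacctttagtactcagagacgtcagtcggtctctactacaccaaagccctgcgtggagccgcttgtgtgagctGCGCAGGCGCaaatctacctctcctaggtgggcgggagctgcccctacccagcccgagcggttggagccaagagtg
Atp5k (chr5:108434350-108434649, minus strand, NRF1 motif at -50 and ETS motif at +12): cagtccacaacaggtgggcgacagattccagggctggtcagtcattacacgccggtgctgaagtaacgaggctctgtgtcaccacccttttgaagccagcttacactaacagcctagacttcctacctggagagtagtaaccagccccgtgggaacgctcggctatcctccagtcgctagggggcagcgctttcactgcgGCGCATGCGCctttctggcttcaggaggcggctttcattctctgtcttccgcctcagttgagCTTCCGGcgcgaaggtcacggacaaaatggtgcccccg
Ndufb7 (chr8:83566508-83566807, plus strand, ETS motif at -20): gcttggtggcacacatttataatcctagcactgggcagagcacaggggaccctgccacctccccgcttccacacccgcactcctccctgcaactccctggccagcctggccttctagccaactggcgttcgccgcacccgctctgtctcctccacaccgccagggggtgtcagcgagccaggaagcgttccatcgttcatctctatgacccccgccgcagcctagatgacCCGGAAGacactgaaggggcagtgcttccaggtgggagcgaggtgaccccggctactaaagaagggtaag
Sdha (chr13:74350191-74350490, minus strand, NRF1 motif at -98, -55 and -10): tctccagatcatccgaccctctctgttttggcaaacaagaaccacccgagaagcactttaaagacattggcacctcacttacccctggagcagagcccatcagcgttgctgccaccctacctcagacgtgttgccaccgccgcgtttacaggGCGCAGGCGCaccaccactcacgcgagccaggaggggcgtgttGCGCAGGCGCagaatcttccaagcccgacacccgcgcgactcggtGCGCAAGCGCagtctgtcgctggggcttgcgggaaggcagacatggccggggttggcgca
The positions count bases from the annotated start to the first base of the motif. The transcript of NRF1 itself, Nrf1, was 20.5 to 23.8 FPKM in HSCs and 20.5 to 23.2 FPKM in LSK cells (log2 difference -0.06, adjusted p = 0.49, limma). Gabpa, the DNA-binding subunit of GABP, was 11.1 to 12.0 FPKM in HSCs and 8.87 to 10.9 FPKM in LSK cells (-0.19, adjusted p = 0.13, limma). Gabpa overlaps the member Atp5j on the opposite strand, and the reads carry no strand. The part of Atp5j reads in the Gabpa value was not tested.

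With RBCs few subunit transcripts passed the test, and their share was low among all genes as well. In HSCs 1 of 77 members was called, Cox6b2, where 2.53% of all genes were called (1.57% higher and 0.958% lower), and 2 members were under an unadjusted p of 0.05. In LSK cells limma called 0 of 77 members, where 3.45% of all genes were called (2.32% higher and 1.13% lower), and 8 were under an unadjusted p of 0.05. Averaged over the cell types 1 member was called, Cox6b2 again, where 5.37% of all genes were called (3.38% higher and 1.99% lower). The interaction term, which sets the RBC effect in HSCs against that in LSK cells, was called by limma for 0 members, where 0.133% of all genes were called (0.05% positive and 0.0833% negative), with 3 members under an unadjusted p of 0.05. The log2 difference lay within 0.2 of 0 for 73 of 77 members in HSCs and for 67 of 77 in LSK cells, and the 95% interval of a member had a median half-width of 0.18.

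Cox6b2, known as the testis form of subunit VIb (chr7:4751792-4753094, minus strand), was 69.5 and 72.3 FPKM in HSC controls and 47.6 and 41.2 FPKM in HSCs with RBCs. Both co-culture libraries were lower than both controls, by 0.67 ± 0.12 on the log2 scale (SE, adjusted p = 0.021, limma). In LSK cells it was 79.4 and 70.0 FPKM without RBCs and 49.97 and 63.2 FPKM with RBCs (-0.40, adjusted p = 0.11, limma), and the average over cell types was -0.53 (adjusted p = 0.0069). The call in HSCs was lost in 7 of 20 alternatives, among them leaving out any of the 4 HSC libraries (adjusted p = 0.057 to 0.14). Its widely expressed partner Cox6b1 stood at 991 and 1128 FPKM in HSC controls, 992 and 992 in HSCs with RBCs, 839 and 847 in LSK controls and 765 and 726 in LSK cells with RBCs. Cox6b2 made up 3.99% to 8.64% of the sum of both forms.

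By complex, the sums in HSCs with RBCs were 99.96% (complex I), 96.1% (complex II), 99.1% (complex III), 97.3% (complex IV) and 97.8% (complex V) of those in HSC controls. In LSK cells they were 96.6%, 91.9%, 94.3%, 94.4% and 92.7% in the same order. In LSK cells 64 of the 77 members were lower with RBCs, with a median log2 difference of -0.08 beside -0.0095 over all genes, and in HSCs 42 were lower, with a median of -0.01 beside -0.0062 over all genes. Of the single members, 33 were lower with RBCs in both cell types, 4 were higher in both, 31 were higher in HSCs and lower in LSK cells and 9 were the reverse. The median in HSCs turned on the control libraries. It was -0.10 without control replicate 1 and 0.062 without control replicate 2.

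**Figure D5:**
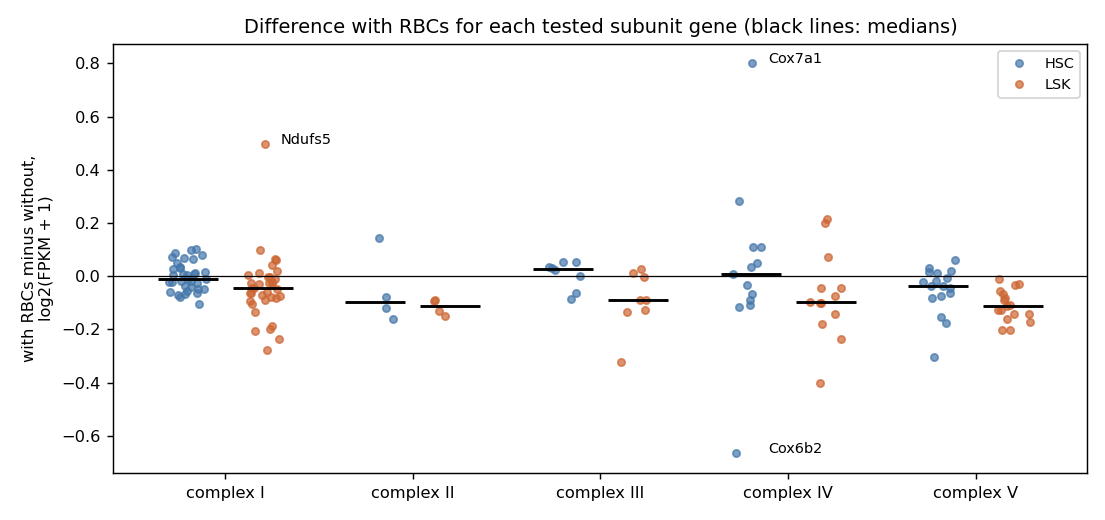
Difference with RBCs minus without on the log2(FPKM + 1) scale (vertical axis) for each of the 77 tested members, by complex, in HSCs (blue) and LSK cells (orange), with black lines at the medians. Most points lie within 0.2 of 0, and of the labelled genes only Cox6b2 in HSCs passed the test.

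Other nuclear genes of the same complexes and pathways were read from lists of known members. Among all genes tested, 16.8% were lower and 16.1% higher in LSK cells, which is the share to set beside the counts below. Among 9 tested subunits and associated proteins that the symbol rule left out, with cytochrome c (Cycs) and the ATP synthase inhibitor Atpif1 among them, 5 were lower in LSK cells and 1 was higher, with a median of -0.25. The gene that was higher was Ndufa4 (0.31), now known as a complex IV subunit, and those that were lower included Ndufab1 (-0.40), the mitochondrial acyl carrier protein, and Cox4i2 (-0.83), a paralog of the complex IV subunit Cox4i1 (-0.04, not called). Of 15 complex I assembly factors 3 were lower, Ndufaf1 (-0.69), Ndufaf2 (-0.44) and Ndufaf4 (-0.27), and the median was -0.06. Of 20 complex IV assembly factors 2 were lower, Cox20 (-0.42) and Coa3 (-0.25), and 1 was higher, Cox16 (0.31). In complex III 2 of 6 assembly factors were lower, in complex V 1 of 3, Atpaf1 (-0.60), and in complex II 1 of 4 was higher, Sdhaf3 (0.24). In either direction, 15% to 33.3% of each list of assembly factors was called, beside 32.9% of all genes tested.

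Lists of related metabolism are given for comparison. Of 17 genes of the TCA cycle and pyruvate dehydrogenase, 5 were lower in LSK cells, 2 were higher, and the median was 0.02. Of 19 glycolysis enzymes 8 were lower and 2 higher, among the latter Hk3 (1.51), a hexokinase, with a median of -0.26. Of 77 mitochondrial ribosomal proteins 33 were lower and 1 higher (median -0.15), and of 83 cytosolic ribosomal proteins 11 were lower and 1 higher (median -0.08). In either direction, 44.2% of the mitochondrial and 14.5% of the cytosolic ribosomal proteins were called, beside 32.9% of all genes tested. Among 14 regulators of mitochondrial biogenesis 3 were lower and 3 higher (median -0.02). Of 7 tested carriers, the ADP/ATP exchangers Slc25a4 (-0.22) and Slc25a5 (-0.22) were lower and the uncoupling protein gene Ucp2 (0.26) was higher. With RBCs, 2 glycolysis enzymes were lower in HSCs, Hk3 (-1.06) and Ldhb (-0.38), and 4 were lower in LSK cells, namely Tpi1, Pgk1, Eno1 and Pkm. Among all genes tested, 0.958% were lower with RBCs in HSCs and 1.13% in LSK cells.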

How the data were processed

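Full-length cDNA (SMART-Seq HT, unstranded) from 8 libraries was sequenced. The authors aligned the reads to mm10 and deposited FPKM per gene symbol, and the submitters' processing notes name TopHat2 2.1.1, Bowtie2 2.2.8, SAMtools 0.1.18 and Cuffdiff 2.2.1. The gene annotation is not given in the sources used here. FPKM hold no read counts, so no count model was used, and the precision of single values is not known. Because reads carry no strand, a member and a gene on the opposite strand cannot be told apart, which concerns 27 members, and 11 overlap a gene on the same strand.

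From these values log2(FPKM + 1) was computed for 12003 genes with at least 1 FPKM in at least 2 libraries. All 4 group means were fitted together in limma 3.58.1 (R 4.3.3, trend by mean expression, 4 residual degrees of freedom), and p-values were adjusted by the Benjamini-Hochberg method over all genes. Adding 1 understates the change of low genes. The fit was tested on simulated data. An exact permutation test of 2 against 2 libraries cannot reach 0.05. This limit does not hold for the 4 LSK against the 4 HSC libraries, but no permutation test was run there either. In each contrast the 5 called members with the largest change in each direction are named, with the highest and lowest member of each complex, fixed core subunits and paralogs. Positions and lengths come from GENCODE M21 (GRCm38), where all 80 members matched, 1 by synonym. Promoters were from RefSeq. The members and lists were chosen with earlier results of these data known. Alternatives covered pseudocount, filter, scaling, trend, samples in the fit, replicate block, fold threshold, transcript length and each library left out. Values of 1 core subunit are not reported here.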

Additional observations from a re-analysis of the deposited data

How the results depend on the processing

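Direction was followed for members named because they were called in the main fit, each in the contrast of its call, and none reversed. Genes chosen by their call seldom reverse, so this check is weak. Other genes named above were not followed. For Ndufs5 the RBC difference in HSCs was -0.06, and -0.79 without HSC_RBC replicate 2. Its RBC difference averaged over cell types was 0.22, and 0.58 without HSC_RBC replicate 1. The median for RBCs in HSCs, -0.01, was positive when rescaled to a common sum (0.023), after quantile normalization (0.0066), with the length correction (0.030) and without HSC_Ctrl replicate 2, and the median of the interaction, 0.06, was -0.02 without HSC_Ctrl replicate 1. Of 470 recomputed values for named genes, 414 kept their call and 56 lost it, and 261 of 294 summary values stayed close to the main ones. For the average over cultures (51 members called), the count was 1 with at least 2-fold (Cox6a2), 33 to 59 with single libraries left out, the lowest without LSK_RBC replicate 2, and the median was -0.11 after quantile normalization. For co-culture (38) the count was 1 with at least 2-fold and 24 with no trend, and 17 to 50 with single libraries left out. It was 22 and 21 without HSC_RBC replicate 1 and 2, and 23 and 17 without LSK_RBC replicate 1 and 2. The median was -0.12 after quantile normalization. For single culture (24) the count was 11 when genes above 0 were all tested, 10 with no trend, 10 with only the groups compared, 14 with the length correction and 1 with at least 2-fold. It was 7 to 44 with single libraries left out, namely 44 and 12 without HSC_Ctrl replicate 1 and 2, and 15 and 7 without LSK_Ctrl replicate 1 and 2, and the median ran from -0.31 to -0.10. A lone library was taken to vary like the other groups. Each of these causes was not tested, apart from the fewer libraries or the larger number of genes that a setting itself brings.

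For RBCs in HSCs (1 member called) the count was 0 when genes above 0 were all tested, 0 with no trend and 0 with at least 2-fold, and 0 to 1 with single libraries left out, where Ndufs5 was the call without HSC_RBC replicate 2. The median ran from -0.10 to 0.062. In LSK cells the count was 0 to 1 with single libraries left out, Ndufc2 without either HSC_Ctrl library. Averaged over cell types (1) it was 0 with at least 2-fold and 1 to 5 with single libraries left out, the 5 (Cox6b1, Cox6b2, Cox6c, Ndufc2 and Uqcr11, all lower) without HSC_Ctrl replicate 1, and 2 (Cox6b2 and Ndufs5) without HSC_RBC replicate 1. The complex II sum was 96.4% in LSK cells when each library was rescaled to a common sum, a scaling that moved the median of all genes to 0.05.

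Deviations from group means over all genes tested correlated between -0.07 and 0.10 across groups, so no pairing by replicate number was seen. Correlations over all genes cannot show whether libraries shared animals or preparations, and no label says so. With the replicate block, 45 members were called on average over cultures, 33 in co-culture, 18 in single culture, 1 for RBCs in HSCs and 1 for RBCs on average, and 0 elsewhere. The length correction of the medians was added after seeing the data and gave -0.13 in single culture and -0.20 in co-culture. With 2 libraries a group and no read counts, differences with RBCs under about 0.18 on the log2 scale lay within the interval of a typical member. Between the cell types this limit was 0.13 when averaged over cultures, and within either culture it was as for RBCs. These intervals are not adjusted for the number of genes tested.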
